A study of Homo sapiens with 9 samples.

Results

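ABC transporters are the ATP-binding cassette proteins of the human genome, and their genes were taken here by symbol: ABC, a subfamily letter from A to G, and a number. Of 60649 genes in the count table, 46 carried such a symbol. ABCC13, annotated as a pseudogene, had no read in any library and was set aside, which left 45 protein-coding members, ABCG2 and ABCC1 among them. The libraries came from MDA-MB-231, a triple-negative breast cancer line cultured in DMEM with serum. PLKO-GFP libraries (n = 3) are from cells carrying the control lentiviral vector, and shAHR#2 (n = 3) and shAHR#3 (n = 3) libraries are from cells carrying a hairpin RNA against AHR, the aryl hydrocarbon receptor. All 9 are labelled as proliferating cells with no added drug or ligand. According to the study's methods, infected cells were selected with puromycin and pooled, so each group is a selected population and not a clone. The labels number the hairpins differently from those methods, and hairpin sequences are therefore not given. No source says whether the 3 replicates were separate cultures, so the p-values measure only the spread between these libraries.

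An ABC transporter couples the binding and hydrolysis of ATP by paired cassettes to the movement of a substrate across a membrane. Members of subfamilies B, C and G include the pumps that expel drugs and conjugated metabolites from tumor cells. Members of A and G move sterols and phospholipids, most of D import acyl-CoA into peroxisomes, and those of E and F have no membrane domain and act on ribosomes. AHR is a ligand-activated transcription factor that pairs with ARNT and binds DNA containing GCGTG, and ABCG2 has been described as an AHR target in other cells.

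AHR itself stood at 114, 118 and 121 CPM in the PLKO-GFP libraries, 42.5, 40.4 and 41.9 with shAHR#2 and 46.3, 52.1 and 44.5 with shAHR#3, where CPM is the read count set against the library size, scaled for library composition. The hairpin libraries lay below every control library. Library totals ran from 15991396 to 20374460 reads, and no pair of libraries of the same group agreed within sampling noise. Of the line's own markers, VIM (2634 CPM in controls), CD44 (811), KRT8 (284) and KRT18 (304) were abundant and PGR had no read. ERBB2 stood at 62.4 CPM in controls, EPCAM at 6.62, CDH1 at 0.909 and ESR1 at 0.0357. With shAHR#2 and shAHR#3, CD44 fell to 692 and 578 CPM and CDH1 rose to 1.80 and 4.16, while ERBB2 was at 62.8 and 71.8. Among 5 markers of other cell types, ALB and DES were at or near 0 in every library, but PECAM1 rose from 2.40 CPM to 11.2 and 12.2 with shAHR#2 and shAHR#3, PTPRC rose from 0.119 CPM to 1.38 and 1.00, and GFAP fell from 4.57 CPM to 1.71 and 2.06. Their summed level ran from 6.83 to 7.75 CPM in PLKO-GFP, 13.4 to 15.2 with shAHR#2 and 14.1 to 16.8 with shAHR#3. It moved with the hairpins, as did the ABC genes described next, and its part in those values was not tested. In bulk RNA, fewer cells with a transcript and less of it per cell cannot be told apart.

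Promoter windows of 300 bases (250 before to 50 after an annotated start, RefSeq, GRCh38.p14) were held for 35 of the 45 members. Shown here are those of ABCG2, the efflux pump with the largest called rise, ABCB10, the member with the largest called fall for the mean of both hairpins, and ABCA1, which fell and whose window lacks the AHR core. Capitals mark GCGTG, or CACGC where the core is on the other strand.
ABCG2, chr4:88158810-88159109, minus strand: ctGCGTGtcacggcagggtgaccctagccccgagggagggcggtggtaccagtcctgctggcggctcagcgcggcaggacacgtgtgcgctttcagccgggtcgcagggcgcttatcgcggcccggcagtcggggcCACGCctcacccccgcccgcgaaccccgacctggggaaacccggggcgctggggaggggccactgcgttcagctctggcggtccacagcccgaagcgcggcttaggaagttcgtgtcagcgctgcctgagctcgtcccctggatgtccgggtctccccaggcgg
ABCB10, chr1:229558658-229558957, minus strand: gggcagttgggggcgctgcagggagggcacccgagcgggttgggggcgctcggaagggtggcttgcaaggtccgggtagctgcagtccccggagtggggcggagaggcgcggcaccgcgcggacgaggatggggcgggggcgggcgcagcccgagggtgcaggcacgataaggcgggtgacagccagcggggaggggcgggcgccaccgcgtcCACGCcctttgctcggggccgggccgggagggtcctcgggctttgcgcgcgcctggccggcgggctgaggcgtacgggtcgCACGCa
ABCA1, chr9:104928106-104928405, minus strand: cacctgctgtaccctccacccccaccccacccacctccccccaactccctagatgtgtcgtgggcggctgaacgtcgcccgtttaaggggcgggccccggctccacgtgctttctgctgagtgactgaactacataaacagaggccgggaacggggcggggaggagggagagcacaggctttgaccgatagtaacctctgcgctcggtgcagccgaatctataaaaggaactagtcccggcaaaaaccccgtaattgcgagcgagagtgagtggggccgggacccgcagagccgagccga

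The ABCG2 window holds the core once on each strand and belongs to 1 of 5 starts listed for the gene, of which 3, with overlapping windows, hold the core. ABCB10 has it in 2 places, both on the other strand. Searched on both strands, GCGTG was in 66.7% of the 30 windows of members that passed the count filter, in 48.0% of the 15227 windows of all genes that passed it and in 36.5% of all 34943 windows. These windows were also GC-rich, with a median of 65.7% GC in the tested members, 64.7% in all tested genes and 58.7% overall. Among members with a window, the core was present in 6 of 8 called higher for the mean of both hairpins, 5 of 6 called lower and 4 of 7 not called. Here a core in any window of a gene counted. The percentages above are per window, with overlapping windows of a gene counted separately. No share per gene over all tested genes was computed. The longer form TNGCGTG, which contains the core, was in 6.67% of the tested members' windows and 6.71% of those of all tested genes. TGACNNNGC, the antioxidant response motif, was in 33.3% and 14.5%. Binding was not measured, so these are matches of letters only.

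Of the 45 members, 27 had enough reads to be tested. ABCB1, which encodes P-glycoprotein, the classical multidrug pump, had no read in any of the 9 libraries, nor did ABCC8, ABCG5 or ABCG8, and a count of 0 allows up to 3 reads in a library. Another 5 (ABCA6, ABCA9, ABCA12, ABCB4 and ABCB11) never exceeded 3 reads. The remaining 9 were low as well, with at most 13 reads. Per exonic kilobase (RPKM, from the scaled CPM), the most abundant in the PLKO-GFP libraries were ABCE1 at 52.0 ± 0.685 (SD, n = 3) and ABCF1 at 28.4 ± 0.383, which are soluble proteins of translation, followed by the peroxisomal ABCD3 at 15.99 ± 0.359. ABCC4 (8.70 ± 0.285) and ABCC1 (7.26 ± 0.209) were the most abundant efflux pumps, and ABCG2 ranked 19 with 1.55 ± 0.271. Together the members took 0.127 to 0.130% of all reads in control libraries, 0.113 to 0.116% with shAHR#2 and 0.121 to 0.122% with shAHR#3. ABCE1 alone held 25.6 to 25.9% of these member reads in controls, 23.1 to 24.4% with shAHR#2 and 21.6 to 22.7% with shAHR#3.

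**Figure D1:**
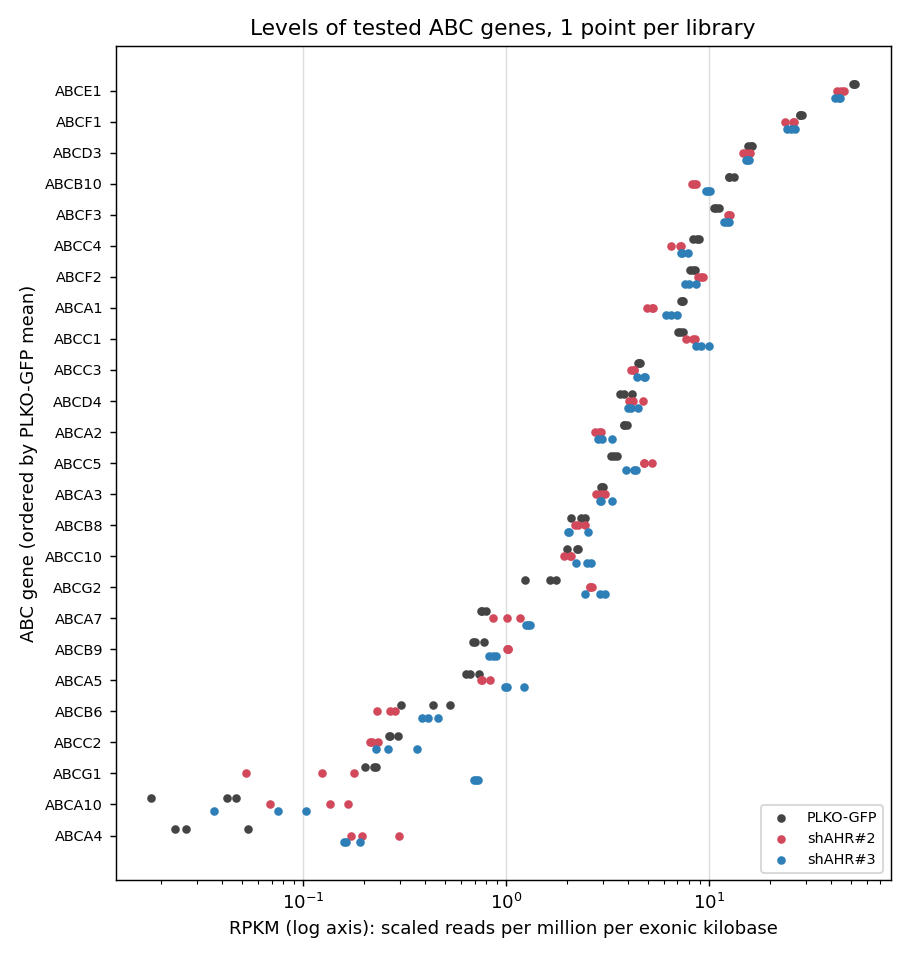
Level of 25 tested ABC genes in each of the 9 libraries, as RPKM on a log axis, with genes ordered by the PLKO-GFP mean. ABCE1 is highest at 52.0 RPKM in controls and ABCA4 lowest. The points of ABCG1 form 3 separate groups, while those of ABCD3 overlap.

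Each hairpin was compared with PLKO-GFP, and the log2 fold changes that follow come with a standard error (SE) and a p-value from edgeR's quasi-likelihood test, adjusted by Benjamini-Hochberg over 14274 genes. Both comparisons, and that of their mean, use the same 3 control libraries and are not independent. A gene was called at an adjusted p under 0.05. With shAHR#2, 20 of 27 tested members (74.1%) were called, against 65.8% of all tested genes. Of these, 11 were higher (40.7% of members, 32.6% of genes) and 9 lower (33.3% of members, 33.2% of genes). With shAHR#3, 17 were called (63%, against 54.4% of all tested genes), 10 higher (37%, background 26.9%) and 7 lower (25.9%, background 27.5%). For the mean of both, 18 were called (66.7%, background 64.3%), 11 higher (40.7%, background 31.5%) and 7 lower (25.9%, background 32.9%). More than 50% of all tested genes passed this threshold, and the shares of members called lay near those backgrounds. The rises include ABCA4 in each comparison, and ABCA10 with shAHR#2 and for the mean. Both passed the count filter only through hairpin libraries, and such genes were not set apart in the backgrounds. The median size of the log2 change, whatever its sign, was 0.32 in members and 0.33 in all genes with shAHR#2, and 0.25 and 0.23 with shAHR#3. Signed medians of the members were near 0, at -0.019 with shAHR#2 and 0.051 with shAHR#3, as were those of all genes (-0.0032 and -6.88e-05).

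**Figure D2:**
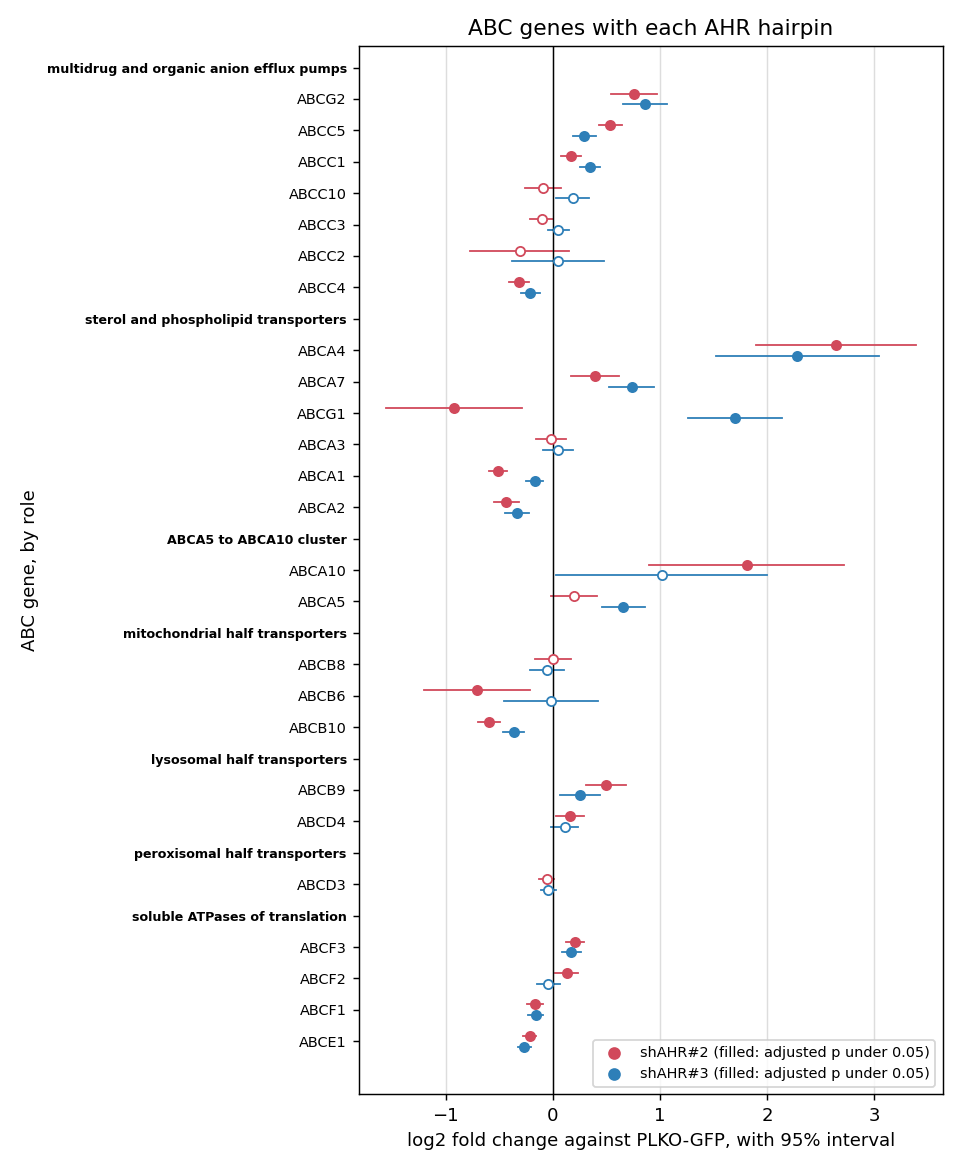
Log2 fold change of 25 tested members against PLKO-GFP (n = 3 per group), grouped by role, with 95% intervals; filled points passed an adjusted p of 0.05. ABCG2, ABCC5 and ABCA7 lie right of 0 and ABCC4, ABCA1, ABCA2, ABCB10 and ABCE1 left of it with both hairpins, while ABCG1 lies on opposite sides.

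Drug and organic anion pumps moved in both directions. Of 7 tested, 3 rose and 1 fell with each hairpin: ABCG2, ABCC5 and ABCC1 were higher and ABCC4 was lower. Of all tested genes, 32.6% rose and 33.2% fell with shAHR#2, and 26.9% and 27.5% with shAHR#3, and the median log2 change of the 7 pumps was -0.092 and 0.18. ABCG2 encodes the breast cancer resistance protein BCRP, which exports drugs, urate and porphyrins. Its control libraries stood at 9.88, 9.24 and 6.99 CPM, those with shAHR#2 at 14.9, 14.6 and 14.6, and those with shAHR#3 at 17.2, 16.3 and 13.7. Every hairpin library exceeded every control library. Means were 8.70 ± 1.52 (SD, n = 3), 14.7 ± 0.151 and 15.7 ± 1.82 CPM. The log2 fold change was 0.76 (SE 0.109, adjusted p = 1.416e-07) with shAHR#2 and 0.86 (SE 0.105, adjusted p = 8.978e-09) with shAHR#3, or 1.69-fold and 1.81-fold. The hairpins did not differ detectably, with a difference of 0.10 and a 95% interval from -0.096 to 0.29 on the log2 scale. The gene lies on the minus strand at chr4:88090150-88231628 (GRCh38).

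ABCC1 encodes MRP1, an exporter of glutathione conjugates and leukotriene C4. Control libraries held 63.1, 61.8 and 65.4 CPM, shAHR#2 libraries 72.6, 74.2 and 67.1, and shAHR#3 libraries 75.8, 79.4 and 87.0. The 3 groups did not overlap. ABCC1 rose by 0.17 (SE 0.0486, adjusted p = 0.002641) with shAHR#2 and by 0.35 (SE 0.0468, adjusted p = 5.898e-08) with shAHR#3, smaller changes than those of ABCG2 on a level that was 7.26 RPKM against 1.55. ABCC5 encodes MRP5, a pump for cyclic nucleotides and heme. Its values were 38.9, 39.9 and 37.4 CPM in controls, 54.5, 54.3 and 59.8 with shAHR#2 and 48.5, 49.5 and 44.2 with shAHR#3, with shAHR#2 highest and no overlap between groups. Its log2 fold changes were 0.54 (adjusted p = 6.19e-11) and 0.29 (adjusted p = 2.254e-05).

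ABCC4, encoding MRP4, which exports cyclic nucleotides and prostaglandins, went the other way. It had 72.4, 77.2 and 75.7 CPM in controls, 56.2, 62.2 and 62.9 with shAHR#2 and 68.0, 63.9 and 62.9 with shAHR#3. Every hairpin library lay below every control library. The log2 fold changes were -0.32 (SE 0.0468, adjusted p = 2.193e-07) and -0.21 (SE 0.0452, adjusted p = 0.0001392). ABCC2 (MRP2), ABCC3 (MRP3) and ABCC10 (MRP7) were not called with either hairpin. Their 95% intervals ran from -0.77 to 0.15 and -0.38 to 0.48 for ABCC2, from -0.21 to 0.00096 and -0.050 to 0.15 for ABCC3, and from -0.26 to 0.074 and 0.026 to 0.34 for ABCC10. ABCC10 with shAHR#3 was close to the threshold (0.18, adjusted p = 0.05174), and passed it when PLKO-GFP replicate 3, shAHR#3 replicate 2 or any shAHR#2 library was left out (0.19 to 0.25, adjusted p from 0.0132 to 0.0490).

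Among the transporters of sterols and phospholipids was ABCA4, the tested member with the largest fold change with each hairpin. Of 6 tested, 2 rose and 3 fell with shAHR#2 (65.8% of all tested genes were called), and 3 rose and 2 fell with shAHR#3 (54.4%). ABCA4, a flippase of retinoid and phospholipid known from photoreceptors, had 4, 4 and 9 reads in controls, 31, 23 and 40 with shAHR#2 and 27, 32 and 28 with shAHR#3. All hairpin libraries exceeded all controls, though the level stayed low at 0.221 and 0.171 RPKM. Its control counts were all under the filter's minimum count of 10, so ABCA4 was tested only because its hairpin libraries were higher. Its rank and p-values carry that selection. The log2 fold changes were 2.64 (SE 0.380, adjusted p = 1.391e-07) and 2.28 (SE 0.388, adjusted p = 4.649e-06). ABCA7, a phospholipid transporter related to ABCA1, stood at 7.28, 7.69 and 7.19 CPM in controls, 8.26, 11.2 and 9.74 with shAHR#2 and 12.04, 12.5 and 12.3 with shAHR#3. The groups did not overlap and shAHR#3 was highest. It rose by 0.39 (adjusted p = 0.003143) and 0.73 (adjusted p = 3.027e-07).

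ABCA1 and ABCG1 act in sequence in the export of cell cholesterol, ABCA1 to apolipoprotein A-I and ABCG1 to HDL, and both are known targets of the liver X receptors. ABCA1 fell with both hairpins. Its libraries held 82.9, 84.4 and 83.8 CPM in controls, 60.0, 59.5 and 56.4 with shAHR#2 and 74.2, 78.9 and 70.0 with shAHR#3, 3 groups without overlap and with shAHR#2 lowest. The log2 fold changes were -0.51 (SE 0.0447, adjusted p = 1.101e-12) and -0.17 (SE 0.0424, adjusted p = 0.0007627). ABCG1 was the only tested member called in opposite directions by the hairpins. It had 22, 28 and 27 reads in controls, 6, 17 and 12 with shAHR#2 and 87, 83 and 89 with shAHR#3, or 1.34 ± 0.0825 (SD, n = 3), 0.724 ± 0.386 and 4.36 ± 0.114 CPM. The shAHR#3 libraries lay far above the rest and agreed closely. Against PLKO-GFP the log2 fold change was 1.70 (SE 0.223, adjusted p = 3.775e-08) with shAHR#3 and -0.92 (SE 0.324, adjusted p = 0.01227) with shAHR#2. The fall rests on shAHR#2 replicate 1: without it the change was -0.53 (adjusted p = 0.1594), and the mean of both hairpins, 0.39 and not called (adjusted p = 0.1692), became 0.59 (adjusted p = 0.02894). The rise with shAHR#3 stayed called in each such refit.

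ABCA2, an endolysosomal lipid transporter, had 43.7, 43.9 and 45.5 CPM in controls, 33.1, 33.6 and 31.6 with shAHR#2 and 34.4, 32.9 and 38.4 with shAHR#3. It fell by 0.44 (adjusted p = 6.176e-08) and 0.33 (adjusted p = 7.038e-06) on the log2 scale, all hairpin libraries being lower than the controls. ABCA3, which loads phospholipid into lamellar bodies, was not called, with intervals from -0.16 to 0.12 and -0.093 to 0.19. On chromosome 17 lies the cluster of ABCA5 and its neighbours ABCA6, ABCA8, ABCA9 and ABCA10. ABCA5, a lysosomal and endosomal lipid transporter, stood at 9.71, 8.79 and 8.41 CPM in controls, 9.87, 10.02 and 11.01 with shAHR#2 and 16.1, 13.3 and 13.04 with shAHR#3. The shAHR#3 libraries were the highest; the shAHR#2 libraries were just above the controls. The log2 fold changes were 0.20 (adjusted p = 0.1058) and 0.66 (adjusted p = 7.685e-07). ABCA10, at 3 to 26 reads, was called with shAHR#2 (1.81, adjusted p = 0.0008695) and not with shAHR#3 (1.01, adjusted p = 0.08584), but passed with shAHR#3 when replicate 2 of that group was left out (1.33, adjusted p = 0.03045). Its control libraries held 7, 3 and 7 reads, so ABCA10 too passed the count filter only through hairpin libraries. The annotated exons of ABCA5 and ABCA10 share 318 bases on the same strand, and a read there cannot be given to either gene alone.

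**Figure D3:**
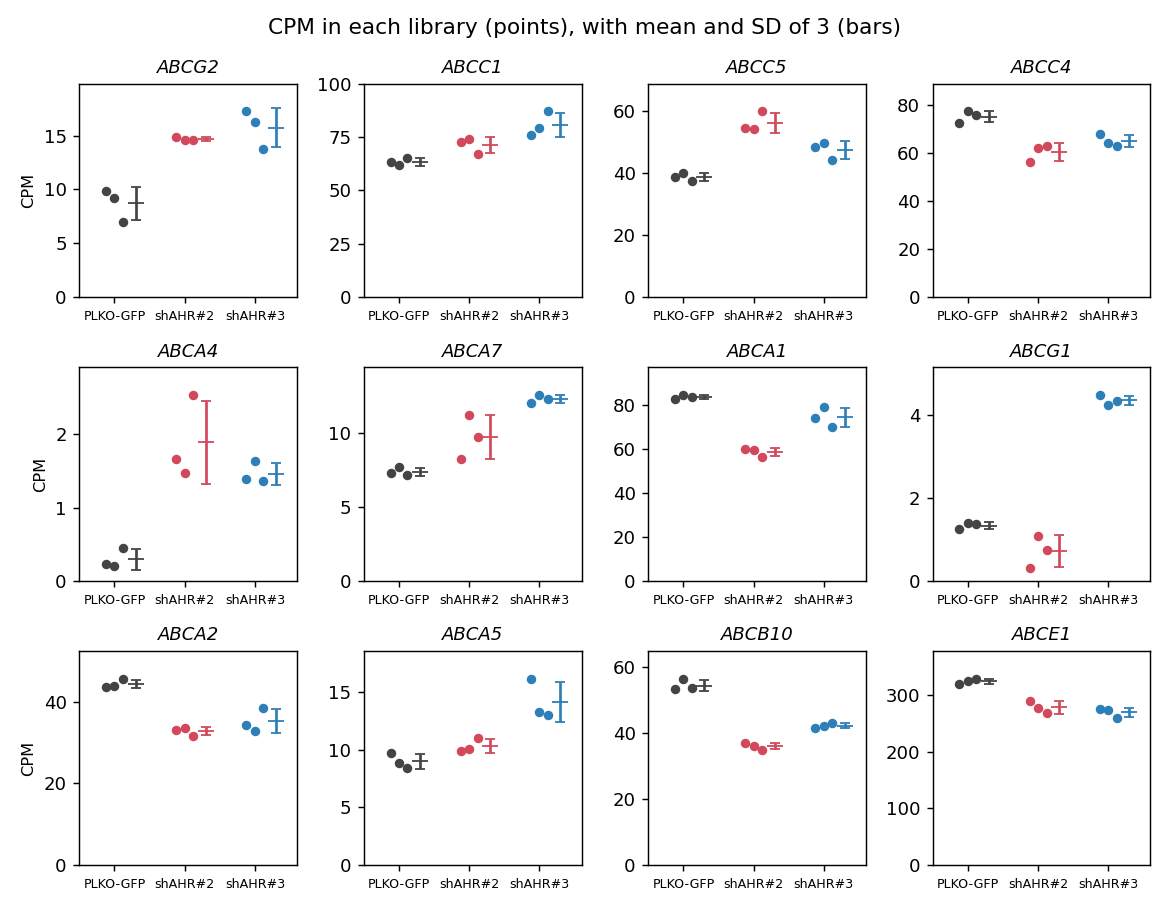
CPM in each library for 12 members (axes start at 0; points are libraries, bars beside them the mean and SD of 3). ABCG2, ABCC1, ABCC5, ABCA4 and ABCA7 sit higher and ABCC4, ABCA1, ABCA2, ABCB10 and ABCE1 lower in every hairpin library than in the controls, and ABCG1 and ABCA5 are highest in the shAHR#3 libraries.

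Among mitochondrial members, ABCB10, of the inner membrane and needed for heme synthesis in red cell precursors, had 53.4, 56.4 and 53.6 CPM in controls, 37.0, 36.2 and 35.0 with shAHR#2 and 41.5, 42.3 and 43.0 with shAHR#3. The groups did not overlap and shAHR#2 was lowest. The log2 fold changes were -0.60 (SE 0.0518, adjusted p = 1.042e-12) and -0.37 (SE 0.0494, adjusted p = 5.985e-08). ABCB8, another inner-membrane member, was not called, with intervals from -0.17 to 0.17 and -0.22 to 0.11.

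ABCB6, a porphyrin transporter, was counted low, with 28, 55 and 45 reads in controls, 26, 23 and 19 with shAHR#2 and 42, 47 and 41 with shAHR#3. The shAHR#2 libraries were lowest and the shAHR#3 libraries lay among the controls. The log2 fold change was -0.70 (SE 0.253, adjusted p = 0.01424) with shAHR#2 and -0.021 (SE 0.224, adjusted p = 0.944) with shAHR#3. The first lost its call without PLKO-GFP replicate 2 (-0.51, adjusted p = 0.1156) or shAHR#2 replicate 3 (-0.63, adjusted p = 0.05522), and the mean of both hairpins, -0.36 and not called, passed without PLKO-GFP replicate 1 (-0.54, adjusted p = 0.03254). Of its exonic bases, 54.6% are shared with a same-strand gene model that had 0 to 11 reads, so its count is uncertain.

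Of the lysosomal members, ABCB9 rose with each hairpin and ABCD4 was called with shAHR#2. ABCB9, a peptide transporter of the lysosomal membrane, stood at 9.09, 10.4 and 9.32 CPM in controls, 13.6, 13.5 and 13.4 with shAHR#2 and 11.9, 11.0 and 11.5 with shAHR#3, without overlap. Its log2 fold changes were 0.49 (adjusted p = 2.417e-05) and 0.25 (adjusted p = 0.02266). The second was lost without PLKO-GFP replicate 1 or 3 or shAHR#3 replicate 1 (0.22 to 0.23, adjusted p from 0.0678 to 0.0854) and under DESeq2 (adjusted p = 0.06069). Antisense genes overlap ABCB9 exons, the widest over 20.7% of its bases with 74 to 103 reads, and whether counting used strand is not given. ABCD4, which takes part in the release of cobalamin from lysosomes, had log2 fold changes of 0.16 (adjusted p = 0.03132) and 0.11 (adjusted p = 0.1475), with values that overlapped the controls. The call with shAHR#2 was lost without PLKO-GFP replicate 1 or 2 or shAHR#2 replicate 2 (0.096 to 0.14, adjusted p from 0.0953 to 0.237), that for the mean of both (0.13, adjusted p = 0.03485) without PLKO-GFP replicate 1 or 2, shAHR#2 replicate 2 or shAHR#3 replicate 3 (0.094 to 0.12, adjusted p from 0.0749 to 0.202), and shAHR#3 passed without PLKO-GFP replicate 3 (0.17, adjusted p = 0.04525).

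ABCD3, which imports branched chain acyl-CoA and bile acid intermediates into peroxisomes and stood at 15.99 RPKM in controls, was not called with either hairpin, with intervals from -0.13 to 0.011 and -0.11 to 0.024.

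The soluble members of subfamilies E and F act in translation. ABCE1, which splits ribosomes after termination, had 320, 326 and 329 CPM in controls, 291, 279 and 268 with shAHR#2 and 276, 275 and 261 with shAHR#3. Every hairpin library was below every control library. It fell by 0.22 (SE 0.0297, adjusted p = 4.831e-08) and 0.27 (SE 0.0294, adjusted p = 8.003e-10) on the log2 scale, small changes at the highest level of the family. ABCF1, which works with the initiation factor eIF2, fell by 0.17 (adjusted p = 0.0002098) and 0.16 (adjusted p = 0.0003398), and ABCF3 rose by 0.21 (adjusted p = 0.0001196) and 0.17 (adjusted p = 0.001005). ABCF2 had 41.6, 43.8 and 43.2 CPM in controls, 45.6, 48.0 and 47.1 with shAHR#2 and 41.0, 39.1 and 44.7 with shAHR#3. Only the shAHR#2 libraries stood clear of the controls. Its log2 fold changes were 0.13 (adjusted p = 0.04043) and -0.044 (adjusted p = 0.5192), and the first was lost without PLKO-GFP replicate 1 or 3 or shAHR#2 replicate 2 or 3 (0.11 to 0.13, adjusted p from 0.0677 to 0.133), under DESeq2 and without the count filter. Of ABCF2 exonic bases, 37.1% are shared with a same-strand readthrough model with 0 to 4 reads.

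The hairpins were also compared with each other, without the control libraries entering the difference. Of 27 tested members, 12 differed (44.4%, against 42.3% of all tested genes). With shAHR#3, 9 were higher than with shAHR#2 (33.3%, background 21.9%) and 3 lower (11.1%, background 20.4%). ABCG1 differed most, by 2.62 (SE 0.263, adjusted p = 1.291e-10), which is 6.15-fold. ABCA1, its partner in cholesterol export, was also higher with shAHR#3, by 0.34 (SE 0.0452, adjusted p = 6.575e-08). ABCA5 was higher by 0.46 (adjusted p = 0.0003021), ABCB10 by 0.23 (adjusted p = 0.0005584), ABCC1 by 0.18 (adjusted p = 0.001918) and ABCC10 by 0.28 (adjusted p = 0.006621). ABCC5 was lower with shAHR#3 by 0.25 (difference -0.25, adjusted p = 0.00023), the reverse order of ABCC1. The medians over members and over all tested genes were 0.098 and 0.0068 on the log2 scale.

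Other differences between the hairpins depended on single libraries. ABCA7 (0.34, adjusted p = 0.007394) lost its call without shAHR#2 replicate 1 (0.23, adjusted p = 0.1094). ABCB6 (0.68, adjusted p = 0.02639) lost it without shAHR#2 replicate 1 or 3 or shAHR#3 replicate 2 (0.61 to 0.71, adjusted p from 0.0600 to 0.0906), and ABCC3 (0.16, adjusted p = 0.01671) without shAHR#2 replicate 1 or shAHR#3 replicate 1 or 3 (0.13 to 0.14, adjusted p from 0.0633 to 0.0717). ABCF2 (-0.17, adjusted p = 0.01056) lost it without replicate 2 of shAHR#2 (-0.15, adjusted p = 0.05152) or of shAHR#3 (-0.13, adjusted p = 0.09011). ABCB9 (-0.24, adjusted p = 0.03473) was the least stable, uncalled without any shAHR#2 library or shAHR#3 replicate 2 or 3 (-0.24 to -0.21, adjusted p from 0.0604 to 0.109). Conversely, ABCC4 (0.11, adjusted p = 0.06798) passed without replicate 3 of shAHR#2 (0.14, adjusted p = 0.03687) or of shAHR#3 (0.13, adjusted p = 0.03697) and ABCA10 (-0.79, adjusted p = 0.1112) without shAHR#2 replicate 2 (-1.06, adjusted p = 0.04315). ABCG2, ABCA4, ABCE1 and ABCF1 were not called between the hairpins.

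**Figure D4:**
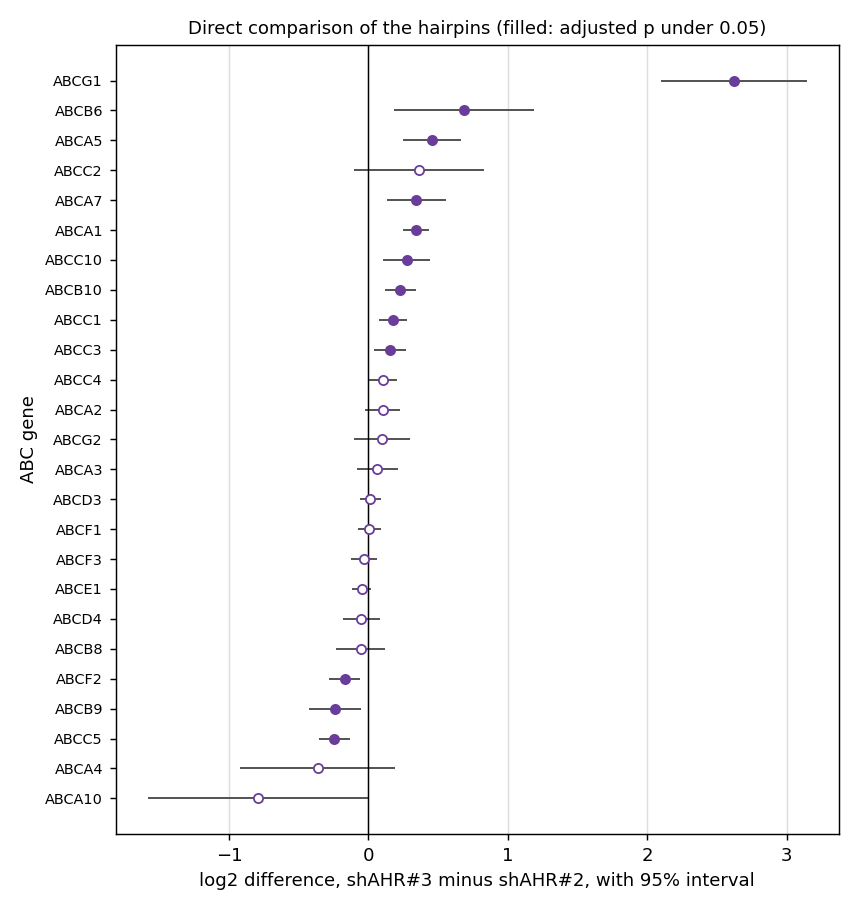
Log2 difference of 25 tested members between shAHR#3 and shAHR#2 (n = 3 each), with 95% intervals; filled points passed an adjusted p of 0.05. ABCG1 stands apart at 2.62 and the other called differences lie between -0.25 and 0.68.

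Genes that regulate, anchor or feed ABC transporters were followed in 4 lists, for the mean of both hairpins. By that comparison 31.5% of all tested genes rose and 32.9% fell, 64.3% together, with a median log2 change of -0.0041. Of 28 tested regulators of ABC gene transcription, 14 rose and 10 fell, a larger share called than the background, with a median of 0.16. The falls include AHR itself. With shAHR#2 alone 14 rose and 10 fell (background 32.6% and 33.2%), and with shAHR#3 14 and 6 (background 26.9% and 27.5%). EPAS1 counts among the falls for the mean (-0.10). It fell with shAHR#2 (-0.64, adjusted p = 3.701e-18) but rose with shAHR#3 (0.43, adjusted p = 4.795e-14). For the mean, the largest rises were those of PPARG, a lipid-sensing nuclear receptor (1.199, adjusted p = 3.359e-27), FOXO1 (0.84, adjusted p = 2.017e-12) and NR1H3, the liver X receptor alpha (0.71, adjusted p = 3.009e-08). NR1H3 had 8.19, 6.74 and 6.73 CPM in controls, 10.2, 9.44 and 8.92 with shAHR#2 and 15.2, 13.5 and 14.9 with shAHR#3, groups that did not overlap, with shAHR#3 highest. ABCA1 fell with both hairpins, and ABCG1 fell with shAHR#2 and rose with shAHR#3. A link of either to NR1H3 was not tested. AHR, the target of the hairpins, fell by 1.40 (adjusted p = 1.249e-27) and PPARD by 0.44 (adjusted p = 1.289e-09) on the log2 scale. ARNT2 fell by 0.84 (adjusted p = 7.9e-16), with -1.04 for shAHR#2 and -0.64 for shAHR#3.

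Of 28 tested partners and anchors, 12 rose and 8 fell (background 31.5% and 32.9%), with a median of 0.085. APOE, a lipid acceptor, rose by 1.85 from a low level of 0.369 CPM (adjusted p = 8.861e-06). Its controls held 8, 6 and 7 reads, so APOE passed the count filter only through hairpin libraries. SLC9A3R2, a scaffold of membrane transporters, rose by 0.99 (adjusted p = 3.056e-24), with 1.31 for shAHR#2 and 0.66 for shAHR#3. PDZK1, another scaffold, had 1 to 17 reads and passed narrowly for the mean (1.14, adjusted p = 0.04255). It was called with shAHR#3 (1.51, adjusted p = 0.0135) and not with shAHR#2 (0.77, adjusted p = 0.2583), whose libraries overlapped the controls. RDX, which ties membrane proteins to actin, fell by 0.50 (adjusted p = 2.253e-19), and FECH, the last enzyme of heme synthesis, by 0.44 (adjusted p = 7.041e-07). HBS1L, a ribosome rescue factor that acts before ABCE1, fell by 0.44 (adjusted p = 3.78e-13), with -0.64 for shAHR#2 and -0.24 for shAHR#3. Of 12 tested uptake carriers, 7 were called with shAHR#2 (background 65.8%) and 8 with shAHR#3 (background 54.4%). For the mean, 5 rose and 2 fell (background 31.5% and 32.9%), with a median of 0.16. SLC47A1 (1.66 with shAHR#2 and 1.34 with shAHR#3, adjusted p = 1.81e-16 for the mean), SLCO4C1 (1.01, adjusted p = 8.547e-08) and SLCO1B3 (0.98, adjusted p = 1.178e-15) led the rises, and the carnitine and cation carriers SLC22A4 (-1.48, adjusted p = 2.096e-09) and SLC22A5 (-0.47, adjusted p = 0.0001065) were the falls. Among 24 tested genes of glutathione supply and conjugation, from which MRP pumps draw substrates, 9 rose and 9 fell (background 31.5% and 32.9%), with a median of 0.073. CHAC1, which degrades glutathione, rose by 1.03 (adjusted p = 2.836e-07), with 1.47 for shAHR#2 and 0.58 for shAHR#3. GGT5 rose by 0.91 (adjusted p = 7.317e-17) and GSTA4 by 0.79 (adjusted p = 5.031e-09). The transferases GSTM3, GSTM1 and GSTK1 fell by 0.66 (adjusted p = 2.643e-13), 0.57 (adjusted p = 9.743e-07) and 0.45 (adjusted p = 2.096e-09).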

How the data were processed

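RNA was sequenced from 9 libraries of MDA-MB-231 cells, 3 each with PLKO-GFP, shAHR#2 and shAHR#3. Per the labels and the study's methods, stranded mRNA libraries were sequenced from a single end on a NextSeq instrument and aligned with STAR to GRCh38.p13. The authors deposited raw whole-number counts per gene, without normalization. The submitters' processing notes also name FastQC, featureCounts and Subread. Versions, annotation release, use of strand and treatment of multiply mapped reads are not given in the sources used here, so overlapping, antisense and near-identical genes may share reads. Totals ran from 15991396 to 20374460, which limits genes with few reads to wide intervals.

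Counts were analysed with R 4.3.3, edgeR 4.0.16 and limma 3.58.1. filterByExpr (minimum count 10, minimum total count 15) kept 14274 of 60649 genes, libraries were scaled by TMM, and glmQLFit and glmQLFTest were fitted to all 9 libraries with 1 mean per group and no block. Calls used an adjusted p (Benjamini-Hochberg) under 0.05, SEs were derived from the log2 fold change and its F statistic, and 95% intervals are 1.96 SE on each side. RPKM divides scaled CPM by the exonic length in GENCODE release 44, in which 60507 of 60649 identifiers and all 46 symbols were found, and positions of genes are from it. Values in every library are given for ABCG2, ABCC1, the 6 largest called rises and 6 largest called falls for the mean of both hairpins where the average log2 CPM was 0 or more, the 3 largest called differences in each direction between hairpins and members called in opposite directions. Up to 3 rises and 3 falls are named from each list of related genes, with values in every library for AHR and NR1H3 only. NHERF2 is in the table as SLC9A3R2. Results for some genes that this rule selects are not reported here. Members and lists were chosen with earlier results of these data known.

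Alternatives were DESeq2 1.42.0, its size factors in edgeR, no count filter, a mean of at least 50 counts, a fit limited to the groups compared, a block for the replicate number, an adjusted p under 0.01 and each library left out in turn. The fit was run on simulated data with a fixed spread for all genes. There 200 of 14274 genes were changed, equally with both hairpins. For the mean of both hairpins, edgeR recovered 182 with 8 false among 190 calls, and DESeq2 recovered 174 with 3 false. A gene recovered by edgeR also had to change in the right direction, which was not asked of DESeq2. Another random draw recovered fewer with each tool. In the data, 64.3% of tested genes were called for that mean and 42.3% between the hairpins. The simulation therefore does not show how scaling and false calls behave at such shares. Figures were drawn with matplotlib 3.10.9 in Python 3.11.15.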

Additional observations from a re-analysis of the deposited data

Results flagged for a closer look

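The hairpins differed from each other in 12 of 27 tested members by the direct test of shAHR#3 against shAHR#2 (44.4%, against 42.3% of all tested genes). On the log2 scale the difference was 2.62 for ABCG1, 0.68 for ABCB6, 0.46 for ABCA5, 0.34 for ABCA1, 0.34 for ABCA7, 0.28 for ABCC10, 0.23 for ABCB10, 0.18 for ABCC1 and 0.16 for ABCC3, all higher with shAHR#3. It was -0.25 for ABCC5, -0.24 for ABCB9 and -0.17 for ABCF2, lower with shAHR#3. AHR itself also differed, by 0.19 (edgeR, adjusted p = 0.002834), being higher with shAHR#3 than with shAHR#2. Its part in these differences was not tested.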

How the results depend on the processing

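Counts of called members stayed within 1.5 times under every alternative run: 16 to 21 with shAHR#2 (20 as reported), 16 to 19 with shAHR#3 (17), 16 to 20 for the mean of both (18), 8 to 12 between the hairpins (12), and 62 to 69 genes of the 4 related lists (69). DESeq2 lost ABCF2 with shAHR#2, ABCB9 with shAHR#3, ABCD4 for the mean of both, and ABCB6 and ABCB9 between the hairpins. Without the count filter, 14 more members entered the test, of which ABCA13 and ABCD2 were called, while ABCF2 with shAHR#2 and ABCB9 between the hairpins (-0.23, adjusted p = 0.08276) lost their calls. No called value reversed its direction. Uncalled values near 0 changed sign. For ABCB8 with shAHR#2 (-0.00068 as reported), the value was 0.0035 under DESeq2, 0.0036 with its size factors, 0.0013 at a mean of at least 50 counts, 0.0053 with only the groups compared and 0.0011 with the replicate block. With libraries left out in turn it ran from -0.065 to 0.048 (shAHR#2), -0.17 to 0.0050 (shAHR#3), -0.092 to 0.020 (mean) and -0.17 to 0.0030 (between hairpins). ABCA3 ran from -0.052 to 0.020, -0.021 to 0.084, -0.020 to 0.036 and -0.0026 to 0.10 in the same order. With shAHR#3, ABCB6 ran from -0.20 to 0.17 and ABCC2 from -0.16 to 0.19. The mean for ABCC10 ran from -0.012 to 0.079. Between hairpins, ABCD3 ran from -0.0095 to 0.050, ABCD4 from -0.10 to 0.019 and ABCF1 from -0.034 to 0.035. The cause was not tested. Deviations from the group means correlated weakly between libraries with the same replicate number (r from -0.057 to 0.075 over 9 pairs, median 0.03, none above 0.1). Over 18 pairs with different numbers, r ran from -0.078 to 0.097, with a median of -0.015. A library correlated best with its own number in 10 of 18 cases. These values do not settle whether the numbers mark pairs. The labels do not say that they mark a shared batch, and the main fit took no pairs. With the block, 20, 18 and 18 members were called with shAHR#2, shAHR#3 and their mean and 12 between the hairpins, and ABCC10 with shAHR#3 was gained (0.18, adjusted p = 0.04858).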

Other observations

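Some members below the count filter still differed in their raw reads. ABCA13, the longest protein of the family, had 8, 4 and 7 reads in PLKO-GFP, none in the 3 shAHR#2 libraries and 4, 6 and 10 with shAHR#3. The 3 reads per library that a count of 0 allows would put its level with shAHR#2 1.85-fold below the control mean. That ratio leaves out the sampling error of the few control reads. With shAHR#2, edgeR without a count filter called it (adjusted p = 0.0002369). ABCD2, a peroxisomal member, had none in PLKO-GFP, 3, 1 and 8 reads with shAHR#2 and 1 in each shAHR#3 library. The same fit called it with shAHR#2 (adjusted p = 0.006536), but only shAHR#2 replicate 3 exceeded the 3 reads that a count of 0 allows, so no fold is given. Both rest on few reads. ABCC6, which is mutated in pseudoxanthoma elasticum, had 2 to 13 reads, and its pseudogene copy ABCC6P1 had 6 to 16, so reads may be divided between them.

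Members of the ABC superfamily whose symbols lie outside the pattern were measured as well. TAP1, the peptide transporter of antigen presentation, was at 24.6, 26.9 and 24.3 CPM in PLKO-GFP, shAHR#2 and shAHR#3, and its partner TAP2 at 2.27, 2.70 and 2.47, with neither called for the mean of both hairpins. CFTR, the chloride channel, had no read in any library but shAHR#3 replicate 2, which held 1 read.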
